A study of Mus musculus with 6 samples.

Results

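The genes described are 10 that belong to cholesterol sensing and efflux: the liver X receptors Nr1h2 and Nr1h3, the cholesterol transporters Abca1 and Abcg1, the apolipoproteins Apoe, Apoc1 and Apoc2, the further receptor targets Mylip and Lpcat3, and the fatty acid and lipoprotein receptor Cd36. Every probe set that the platform annotation gives to exactly 1 of these genes was taken, which gave 14 probe sets for 9 of the 10 genes. The deposited table holds 45037 probe sets other than controls, of which 34945 are annotated to exactly 1 gene and together cover 18193 genes. The brightest probe set of a gene, by its mean over the arrays, is called its lead probe set. Nr1h2 had no probe set of its own under this rule and was not analysed here.

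Lung RNA came from 3 mice on a high-fat diet (LC-HFD) and 3 mice on a regular diet (LC-RD). The RNA of each mouse was hybridized to its own Affymetrix mouse genome array. The comparison asks how gene expression differed between the diet groups in lungs with mutant EGFR tumors. The paper reports heavier lungs and a larger tumor burden in LC-HFD than in LC-RD mice. In bulk lung RNA, diet and tumor content therefore cannot be told apart. Both groups were adult male double-transgenic mice backcrossed to C57BL/6, in which the CC10 promoter of airway epithelium drives rtTA and a tet-O promoter drives mutant EGFR once doxycycline is given. The mice were young adults when feeding began. Per the labels, both groups received their diet until 8 weeks and then doxycycline for 7 weeks, dosed at 625 ppm in food and at 2 mg/ml in drinking water, and the high-fat diet took 60% of its energy from fat. The labels do not state whether those 8 weeks count age or time on the diet. The paper describes a feeding period before doxycycline shorter than 8 weeks, which matches the labels if those count age from its stated starting age. Its doxycycline period is longer than in the labels, so the timing is uncertain. The transgenes and the doxycycline were therefore shared, no lung without the induced tumors was compared here, and the results hold for 1 transgenic model and 1 sex.

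Liver X receptors are nuclear receptors that bind oxysterols and, paired with the retinoid X receptors, switch on genes that remove cholesterol from the cell. ABCA1 and ABCG1 load cholesterol onto lipoprotein particles, apolipoprotein E accepts it, and the ubiquitin ligase encoded by Mylip lowers cholesterol uptake by marking the LDL receptor for degradation. In the lung, macrophages and alveolar type II cells are known for handling large amounts of surfactant lipid by this route.

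The receptors act on a direct repeat, which was written as AGGTCA followed by any 4 bases and AGGTCA again and searched on both strands of the window from 250 bases before to 50 bases after each RefSeq gene start (GRCm38.p6). RefSeq promoter windows were listed for 8 of the 10 genes, with 11 starts. None held the motif with all 12 fixed letters, which 0.0152% of the 32851 promoters did. The 3 windows below are shown because Abca1 had the closest match among the 8 genes and Apoe and Lpcat3 are established targets of the receptor with a probe set measured here. Capitals mark the best match, and the strand is that of the gene.
Abca1, chr4:53159940-53159969, minus strand: cagcgttTGACCGGTAGTAACCCcggcgct
Apoe, chr7:19698820-19698849, minus strand: tttgccaGAGTCAGAGCAGGTGGaggggtt
Lpcat3, chr6:124662998-124663027, plus strand: tcggcccCGCCCTCTTCCTACCTtgctgcg
The Abca1 match lies 67 to 52 bases before the start on the reverse strand and departs from the motif at 3 of its 12 fixed letters, 2 in the first AGGTCA of the repeat and 1 in the second. A match this close or closer was held by 21.9% of all promoters. The Apoe and Lpcat3 matches depart at 4 letters, as near as 76.9% of all promoters came. Apoe had 3 of the 11 starts, each with a best match departing at 4 letters, and the window of only 1 of them is shown. These letters describe the windows only, and no binding was measured.

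Of the 14 probe sets, 4 passed adjusted p < 0.05 in limma, 3 of them higher and 1 lower in the LC-HFD group. Over all probe sets 25.0% passed, 11.3% higher and 13.6% lower, so the share among these genes was close to that of the array as a whole. The LC-HFD and LC-RD mice did not overlap in 11 of the 14 probe sets, against 43.8% of all probe sets. The median difference was -0.02 on the log2 scale over the 14 probe sets and 0.04 over all probe sets. Counted by lead probe set, 3 of 9 genes were higher, 1 was lower and 5 did not pass, where 27.3% of all 18193 genes passed, 11.1% higher and 16.2% lower. Of the 9 lead probe sets, 8 did not overlap between groups, against 49.1% of all genes. More than a 2-fold change together with adjusted p < 0.05 was reached by 1 of the 14, Apoc1, which was lower, against 1.73% of all probe sets in either direction and 1.06% in the lower direction. The genes that passed were Apoe, Apoc2 and Abca1, which were higher in LC-HFD lungs, and Apoc1, which was lower.

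**Figure D1:**
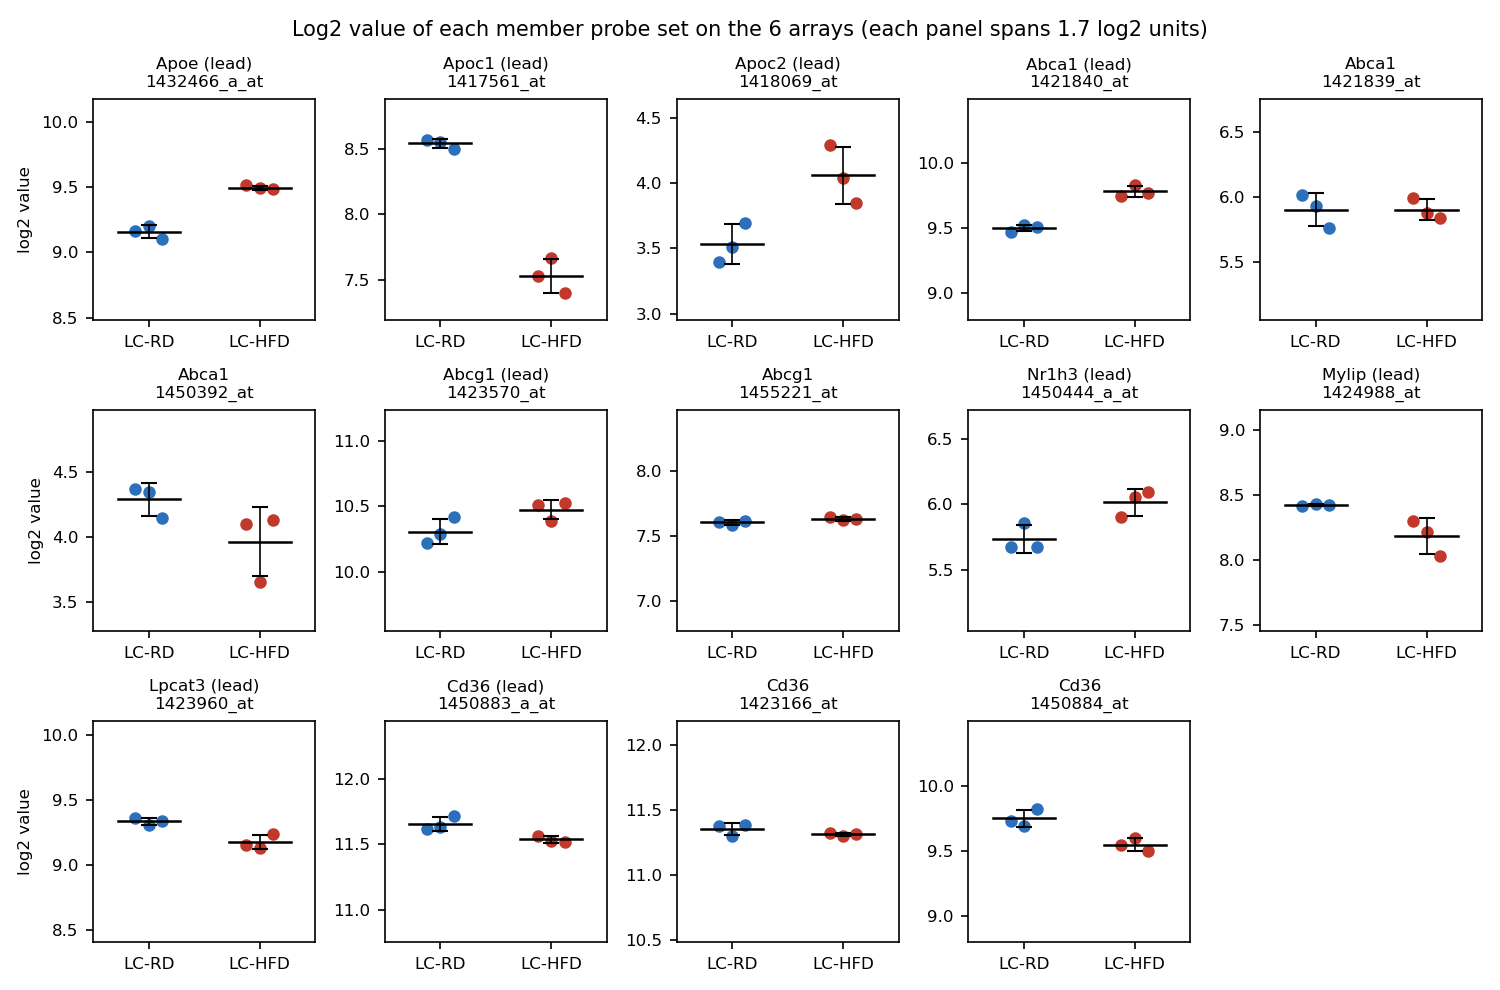
Log2 value of every probe set of the 9 genes in each of the 6 mice, one panel a probe set, with mice as points, the group mean as a line and 1 SD (n = 3) as error bars. The 3 LC-HFD mice lie between 7.40 and 7.66 for Apoc1, all under the 3 LC-RD mice, and above all LC-RD mice for Apoe, Apoc2 and the lead probe set of Abca1.

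The control probe sets on the arrays differed between the groups as well, and they touch every value given here. The spiked hybridization controls, 18 probe sets, averaged 11.5 in LC-HFD and 10.0 in LC-RD arrays, and the 18S ribosomal RNA controls averaged 7.61 and 12.5, with no overlap between the groups for either (exact permutation p = 0.1, the smallest that 3 against 3 arrays allow). The poly-A controls were lower in LC-HFD arrays by a log2 difference of -0.42 and the Gapdh controls higher by 0.24, again without overlap, while beta-actin differed by 0.03 with overlap. Diet and the handling of the arrays therefore cannot be told apart, and the part of handling in any single gene was not tested. Across probe sets the arrays correlated at 0.993 to 0.994 within LC-HFD, 0.996 to 0.998 within LC-RD and 0.983 to 0.988 between groups.

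Apoc1, a small apolipoprotein known to slow lipoprotein uptake and to activate LCAT, was the member with the largest difference in either direction. Its log2 values were 7.52, 7.66 and 7.40 in the LC-HFD mice and 8.57, 8.56 and 8.50 in the LC-RD mice. All 3 LC-HFD mice were lower than all 3 LC-RD mice, and the LC-HFD mice spread more among themselves (SD 0.133, n = 3) than the LC-RD mice (SD 0.0377, n = 3). The difference was -1.02 on the log2 scale (SE 0.0883, 95% interval -1.22 to -0.81), a 2.02-fold lower signal with adjusted p = 0.000675 in limma. A larger absolute difference was seen for 1.65% of all probe sets. Apoc1 passed adjusted p < 0.05 in every alternative that was run (adjusted p 1.44e-07 to 0.00814). It sits just past 2-fold, and the difference was -0.96 after quantile normalization, -0.997 after median centring and -0.95 without LC-HFD replicate 3, each under 2-fold. In bulk lung RNA, fewer cells of a type that carries a transcript and less of it per cell cannot be told apart.

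Apoe, the apolipoprotein that macrophages secrete as an acceptor of cholesterol, went the other way. The log2 values were 9.51, 9.49 and 9.48 in LC-HFD and 9.17, 9.20 and 9.11 in LC-RD mice. Every LC-HFD mouse was above every LC-RD mouse, and the mice of each group lay close together (9.50 ± 0.0154 against 9.16 ± 0.0498, SD, n = 3 each). The difference was 0.34 (SE 0.0692, 95% interval 0.18 to 0.50, adjusted p = 0.0131 in limma), and the signal was among the brighter ones on the array, above 94.7% of probe sets. The call was lost without LC-RD replicate 1 (difference 0.34, adjusted p = 0.0582 in limma) and when the 3′ minus 5′ difference of control genes entered the fit (adjusted p = 0.0986 in limma).

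Apoc2, the cofactor that activates lipoprotein lipase, was also higher, from a low level. Its log2 values were 4.29, 4.04 and 3.85 in LC-HFD and 3.40, 3.51 and 3.70 in LC-RD mice. The groups did not overlap, though the lowest LC-HFD mouse and the highest LC-RD mouse were closer to each other than the mice within the LC-HFD group were. The difference was 0.53 (SE 0.133, 95% interval 0.21 to 0.84, adjusted p = 0.0274 in limma), at a mean level above only 35.6% of probe sets. Leaving out LC-HFD replicate 2, LC-RD replicate 1 or LC-RD replicate 2 ended the call (differences 0.54, 0.46 and 0.51, adjusted p = 0.0581, 0.0982 and 0.0900 in limma), as did the methods' t-test, quantile normalization and the replicate block.

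Apoe, Apoc1 and Apoc2 are neighbours in one gene cluster on mouse chromosome 7, yet their differences did not share a direction. Within each array the Apoe value minus the Apoc1 value was larger in all 3 LC-HFD mice than in all 3 LC-RD mice, by 1.35 on the log2 scale (exact permutation p = 0.1, adjusted p = 0.175 over 7 pairs of probe sets). The same quantity for Apoe and Apoc2 differed by -0.19 with overlap between the groups (exact permutation p = 0.3). Counting protein-coding genes of the RefSeq order outward from Apoe, Apoc1 is the next one on one side and Tomm40, a mitochondrial import channel, the next one on the other. Tomm40 did not pass (difference 0.07, adjusted p = 0.573 in limma), and nor did Apoc4, which lies between Apoc1 and Apoc2 (difference 0.01, adjusted p = 0.925 in limma). Of the 7 listed neighbours measured, 5 were higher and 0 were lower, where 11.1% of all genes were higher and 16.2% lower. Their median difference was 0.51, against 0.02 over the lead probe sets of all genes. Among the higher neighbours were the adhesion molecules Nectin2 (difference 0.96, adjusted p = 0.000833 in limma, and 0.32 on its other probe set) and Bcam (0.80, adjusted p = 0.00109 in limma) and the NF-κB family regulator Bcl3 (0.59, adjusted p = 0.00286 in limma). Relb and Clptm1, named after their values were seen, were the other two that were higher, Clptm1 by 0.51 on its lead probe set but by -0.02 on a dimmer one. Relb (0.32) lost its call without LC-HFD replicate 1 or 2 or any 1 of the LC-RD mice (0.24 to 0.34). Apoc1 was thus the one lower gene among the 10 listed genes measured around Apoe, which were not every protein-coding gene of the stretch. Its fall stood between listed neighbours that were higher or had not passed.

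**Figure D2:**
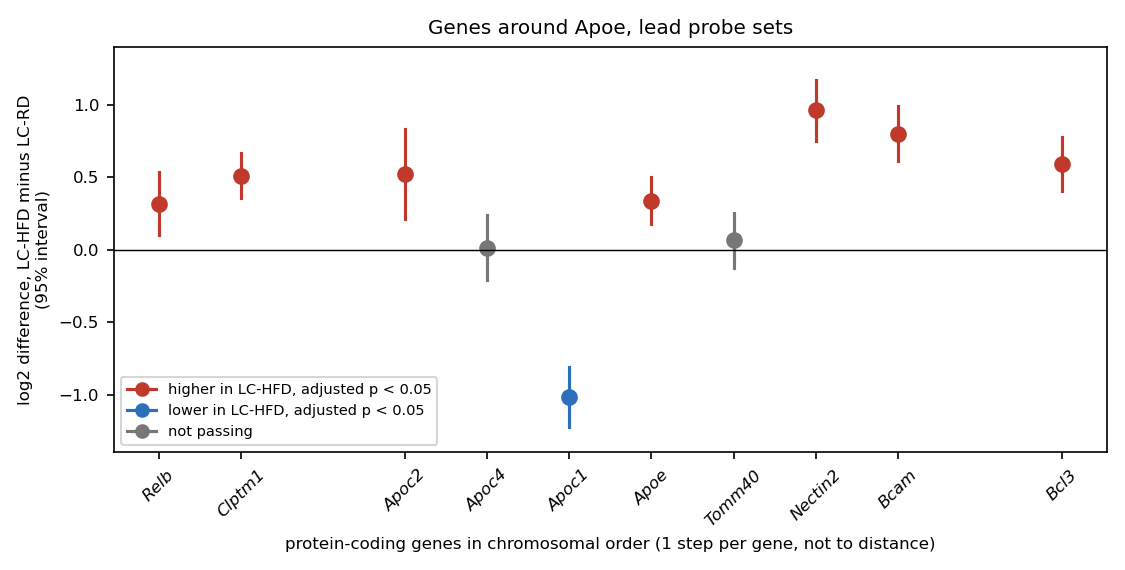
Log2 difference, LC-HFD minus LC-RD, of the lead probe set of each listed gene around Apoe, placed in chromosomal order at 1 step per protein-coding gene, with 95% intervals. Apoc1 is at -1.02, while Apoe beside it is at 0.34 and Nectin2 at 0.96.

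Abca1, the transporter that passes cholesterol and phospholipid to lipid-poor apolipoproteins, was higher on its brightest probe set and not on the other two. The lead probe set, 1421840_at, read 9.75, 9.83 and 9.77 in LC-HFD and 9.47, 9.52 and 9.51 in LC-RD mice. Every LC-HFD mouse was above every LC-RD mouse, by a difference of 0.28 (SE 0.0691, 95% interval 0.12 to 0.44, adjusted p = 0.0248 in limma). Probe set 1421839_at read 5.99, 5.87 and 5.84 against 6.01, 5.93 and 5.76, which overlapped with a difference of 0.00 (adjusted p = 0.990 in limma). Probe set 1450392_at read 4.10, 3.66 and 4.13 against 4.37, 4.35 and 4.14, so the LC-HFD mice were all slightly under the LC-RD mice, with a difference of -0.33 (95% interval -0.66 to 0.01, adjusted p = 0.134 in limma). Within an array the lead probe set moved against 1450392_at by 0.61 and against 1421839_at by 0.28, without overlap in either case (exact permutation p = 0.1 for both). Taken as the median of its probe sets, Abca1 differed by 0.00 (adjusted p = 0.989 in limma). Leaving out LC-HFD replicate 2 or any 1 of LC-RD replicates 1, 2 and 3 also ended the call on the lead probe set, with differences of 0.26, 0.27, 0.29 and 0.29 and adjusted p = 0.0578, 0.104, 0.0805 and 0.0601 in limma. The direction for Abca1 thus rests on 1 of its 3 probe sets, which is also the brightest.

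Abcg1, which moves cholesterol to mature lipoprotein particles, was bright and did not pass. Its lead probe set, 1423570_at, read 10.51, 10.39 and 10.52 in LC-HFD and 10.22, 10.29 and 10.42 in LC-RD mice. The groups overlapped, with a difference of 0.17 (95% interval -0.03 to 0.37, adjusted p = 0.186 in limma). The second probe set, 1455221_at, differed by 0.03 (7.65, 7.62 and 7.63 against 7.61, 7.58 and 7.61, adjusted p = 0.780 in limma).

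Nr1h3, which encodes LXR alpha, read 5.90, 6.06 and 6.09 in LC-HFD and 5.68, 5.86 and 5.67 in LC-RD mice. The groups did not overlap, but the margin between the lowest LC-HFD and the highest LC-RD mouse was smaller than the SD within each group (0.102 and 0.105, n = 3 each). The difference of 0.28 (95% interval 0.07 to 0.50) missed the threshold with adjusted p = 0.0608 in limma, and it passed after quantile normalization and after median centring (adjusted p = 0.0278 and 0.0445 in limma) and without LC-HFD replicate 1 (difference 0.34, adjusted p = 0.0416 in limma). The other receptor, Nr1h2, had no value to set beside it.

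Mylip and Lpcat3, both induced by the receptors in other tissues, had lower means in LC-HFD mice without passing the test. Mylip read 8.30, 8.22 and 8.03 in LC-HFD and 8.41, 8.43 and 8.42 in LC-RD mice. All LC-HFD mice were under all LC-RD mice, which lay within a narrow band, and the difference was -0.24 (95% interval -0.44 to -0.03, adjusted p = 0.0893 in limma). Lpcat3, an acyltransferase that places polyunsaturated fatty acids in membrane phospholipids, read 9.16, 9.13 and 9.24 against 9.37, 9.31 and 9.34, again without overlap (difference -0.16, adjusted p = 0.133 in limma). Both passed with an intensity trend and robust variance and when dim probe sets (mean log2 value under 6) were left out, and the cause of the changed calls was not tested.

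Cd36 takes up fatty acids and oxidized lipoproteins and is carried by lung macrophages and capillary endothelium. It was the brightest of the genes, with a lead probe set above 99.4% of the array. That probe set, 1450883_a_at, read 11.57, 11.53 and 11.52 in LC-HFD and 11.62, 11.63 and 11.72 in LC-RD mice. The LC-HFD mice were all lower, by a difference of -0.12 that did not pass (95% interval -0.28 to 0.05, adjusted p = 0.252 in limma). Probe set 1423166_at differed by -0.04 with overlap (adjusted p = 0.721 in limma), and 1450884_at by -0.20 without overlap (adjusted p = 0.0879 in limma). The 3 probe sets all had lower means in LC-HFD mice and none passed, though 1450884_at passed with an intensity trend and robust variance and when dim probe sets were left out (adjusted p = 0.00589 and 0.0161 in limma).

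**Figure D3:**
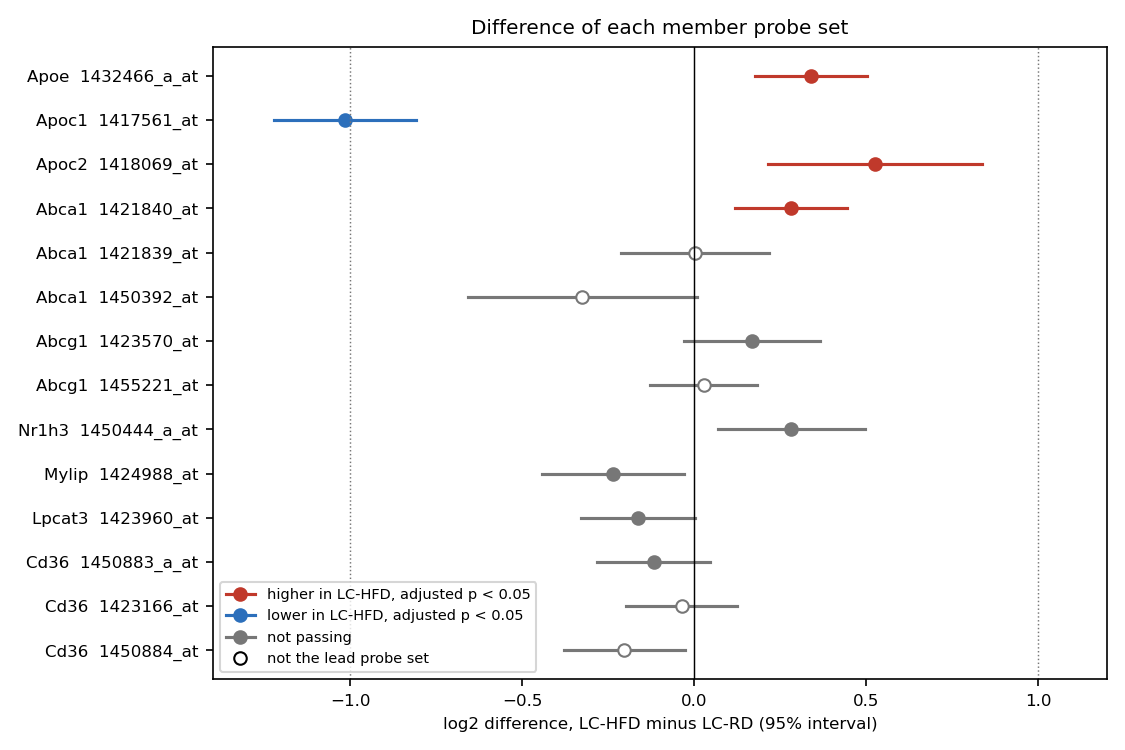
Log2 difference, LC-HFD minus LC-RD, of the 14 probe sets with 95% intervals from limma, filled for lead probe sets and coloured where adjusted p was under 0.05, with dotted lines at 2-fold. Apoc1 is at -1.02, Apoe, Apoc2 and the lead probe set of Abca1 lie between 0.28 and 0.53, and the other 10 probe sets are grey.

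Of 12 retinoid X receptors and cofactors measured, 1 passed, Gps2, a subunit of the corepressor complex, which was higher by 0.50 (adjusted p = 0.00304 in limma), and the median difference of the list was 0.15. Over all genes 27.3% of lead probe sets passed, so most genes of any kind did not. Rxra, the partner named here for its role and not by its value, differed by -0.03 (adjusted p = 0.826 in limma). Of 7 enzymes that make or remove oxysterols, 2 were lower, Cyp39a1 by a difference of -0.52 and Sult2b1 by -0.51, and 5 did not pass (median -0.17).

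Among 23 other known targets of the receptors, 1 was higher, 7 were lower and 15 did not pass, with a median difference of -0.06 against 0.02 over all genes. The shares over all genes were 11.1% higher and 16.2% lower. The higher gene was Pltp, the phospholipid transfer protein that remodels high-density lipoprotein, at 10.4 in LC-HFD and 9.39 in LC-RD mice (difference 1.03, adjusted p = 0.000406 in limma). Its second probe set differed by 1.68. Fads2 and Fads1, the desaturases of polyunsaturated fatty acids, differed by -0.96 and -0.63 (adjusted p = 0.000843 and 0.00189 in limma). The other 5 are named after their values were seen. Scd2 and Scd1, desaturases of saturated fatty acids, differed by -0.42 and -0.41 on the lead probe set and Scd1 by -1.35 on another, Srebf1, the transcription factor that drives these enzymes, by -0.41, Elovl6 by -0.31 and Smpdl3a by -0.25. Elovl6 and Smpdl3a lost their calls without LC-HFD replicate 2 or 3 or any 1 of the LC-RD mice (-0.34 to -0.25 and -0.26 to -0.23). The fatty acid synthesis enzymes Fasn (difference -0.05, adjusted p = 0.665 in limma) and Acaca (-0.21, adjusted p = 0.134 in limma) and the lipase Lpl (-0.11), named for their roles, did not pass.

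The remaining lipid handling lists were mixed. Of 17 genes of lipoprotein uptake and remodelling, 5 were higher and 0 were lower (median 0.14). Lcat, which esterifies cholesterol on lipoproteins, led them and was low on the array at 4.46 against 3.44. The endothelial lipase Lipg (difference 0.98, adjusted p = 0.000634 in limma, and 0.31 on a dimmer probe set) and the lipoprotein receptor Lsr (0.52) followed. Lipg lost its call in 1 of the alternatives. Of 12 genes of cholesterol trafficking and storage, 1 was higher, Stard3 (difference 0.38), and 3 were lower, among them Gramd1c (-0.44) and Stard4 (-0.35), which carry sterol between membranes. Gramd1c lost its call without LC-HFD replicate 1 or 2 or LC-RD replicate 1 or 2 (-0.42 to -0.37), Stard4 without any 1 LC-RD mouse (-0.38 to -0.34) and Stard3 without LC-RD replicate 2 or 3 (0.36 for both). Of 6 relatives of the ABC transporters, Abca2 (0.34) and the surfactant lipid transporter Abca3 (0.30) were higher and Abcg2 (-0.40) was lower, but Abca3 differed by -0.11 as the median of its probe sets. Abcg2 lost its call without any 1 LC-HFD mouse or LC-RD replicate 1 or 2 (-0.45 to -0.30), Abca2 without LC-RD replicate 1 or 2 (0.35 and 0.32) and Abca3 without any 1 LC-RD mouse (0.28 to 0.32). Of 6 relatives of Lpcat3, Lpcat4 (difference 0.73) and Mboat7 (0.34) were higher, and Mboat7 differed by -0.0034 as the median of its probe sets and lost its call without LC-RD replicate 1 or 3 (0.31 and 0.33). All these lists were counted against 11.1% higher and 16.2% lower over all genes.

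**Figure D4:**
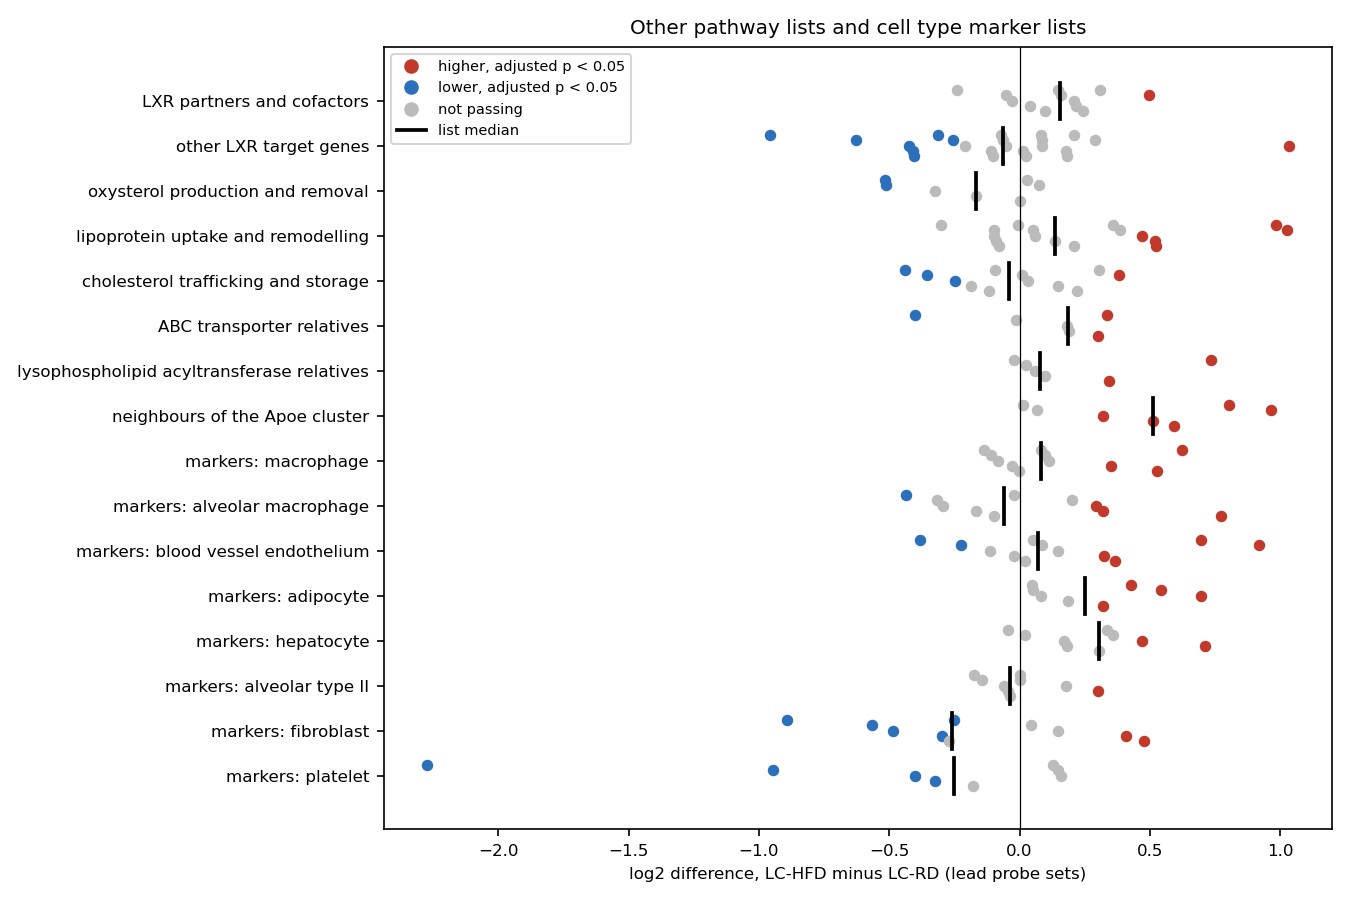
Log2 difference, LC-HFD minus LC-RD, of the lead probe set of each measured gene by list, with the list median as a bar and genes that passed adjusted p < 0.05 coloured. Pltp stands at 1.03, the highest of the other known targets, and the median of that list with Pltp included is -0.06.

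Marker genes of the cells that carry these transcripts were read in the same arrays, and their part in the results was not tested. Of 11 macrophage markers, 3 were higher and 8 did not pass, where 27.3% of all genes passed, 11.1% higher and 16.2% lower. The mean of the list ran from 9.21 to 9.26 in LC-HFD and from 9.09 to 9.13 in LC-RD mice, without overlap, and the median difference was 0.08. The 3 higher markers were all complement genes, C1qb (difference 0.62), C1qc (0.53) and, named after its values were seen, C1qa (0.35). Cd68, Adgre1 and Csf1r did not pass (adjusted p = 0.291, 0.975 and 0.785 in limma). Alveolar macrophage markers overlapped as a list (8.58 to 8.67 against 8.57 to 8.62), with 3 higher, 1 lower and 6 not passing, Marco differing by 0.77 and Atp6v0d2 by -0.43. The alveolar type II list overlapped at 12.5 in both groups, with 1 of 9 higher, so surfactant genes showed the labelled tissue to be lung in all mice. The higher one was Abca3 (0.30), which differed by -0.49 on another probe set. Sftpc read 13.81 in both groups on its lead probe set, at the top of the array, and differed by 1.45 on another. Whether type II cell content differed was not tested.

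The means of the endothelial, fibroblast, platelet, adipocyte and hepatocyte lists did not overlap between the groups either, as 49.1% of all single genes did not, and 27.3% of all genes passed. Of 12 endothelial markers, 4 were higher and 2 were lower (list mean 8.43 to 8.50 against 8.28 to 8.33), with Tie1 differing by 0.92 and, named after their values were seen, Tek by -0.38 and Cldn5 by -0.23. Cldn5 lost its call without any 1 of the 6 arrays (-0.24 to -0.20) and Tek without LC-RD replicate 1 (-0.39). Of 10 fibroblast markers, 2 were higher and 5 were lower (8.48 to 8.56 against 8.67 to 8.68), with Lum differing by -0.89 and, named after their values were seen, Col1a1 by 0.48 and Mfap4 by 0.41. Of 8 platelet markers, 4 were lower (5.51 to 5.56 against 5.92 to 6.06), Ppbp by a difference of -2.27. Of 8 adipocyte markers, 4 were higher and 4 did not pass, Lep among the latter (list mean 4.62 to 4.80 against 4.35 to 4.49). Adipoq was higher at a low level, 3.32 against 2.62. Fabp4, named after its values were seen and also on the alveolar macrophage list, was bright at 8.5 against 8.18. On another of its probe sets Fabp4 differed by -0.67. Adipoq lost its call without LC-HFD replicate 2 or 3 or LC-RD replicate 1 or 3 (0.56 to 0.69). Of 9 hepatocyte markers, 2 were higher (4.36 to 4.45 against 4.13 to 4.15), Alb at 6.12 against 5.41 and Apoa1 by a difference of 0.47, a call lost without LC-RD replicate 1 or 2 (0.40 and 0.44).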

How the data were processed

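Total lung RNA was extracted with TRIzol, labelled as biotinylated cRNA and hybridized, 1 array a mouse, on 6 arrays. The authors deposited log2 values summarised by GCRMA, per the labels, with versions not given in the sources used here. These values were used as deposited, with no further normalization. Replicate numbers come from the labels. Nothing in the labels names separate cages or handling batches.

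Of the 45101 probe sets in the table, 64 controls were set apart. Each of the other 45037 was fitted with limma 3.58.1 (R 4.3.3, lmFit and eBayes, LC-HFD against LC-RD, two-sided), with Benjamini-Hochberg adjustment over all of them, and called at adjusted p < 0.05. The fit was checked on simulated data. Annotation lists 1 gene for 34945 probe sets, several for 932 and none for 9160, and the Entrez ID of 34741 matched RefSeq. Controls and pairs of probe sets were tested with the exact permutation test over arrays. An array has no read depth, so the number of arrays limits the precision. A fold change from GCRMA values of dim probe sets is less certain.

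Every probe set of the 10 genes is named. Of each pathway list, up to 3 genes with the largest absolute difference among those that passed are named, and of each marker list up to 2, with the second of some lists left out of the text. The members and lists were chosen with earlier results of these data known. Alternatives were the methods' t-test, limma with an intensity trend and robust variance, array weights, quantile normalization, median centring, a minimum mean log2 value of 6, the replicate number as a block, a covariate for the 3′ minus 5′ difference of control genes, the median over a gene's probe sets, and leaving out each array. Promoter windows are RefSeq's.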

Additional observations from a re-analysis of the deposited data

How the results depend on the processing

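The number of the 14 probe sets that passed was 4 in the values reported. It was 9 with an intensity trend and robust variance, 4 of them higher and 5 lower, in a fit that passed 30.6% of all probe sets. Among probe sets with a mean of at least 6 it was 6 of 10, 2 higher and 4 lower, where 55.0% of all passed. It was 2 with the replicate block and 1 with the 3′ minus 5′ covariate, and 1 to 5 when an array was left out (2 without LC-HFD replicate 2 or LC-RD replicate 2, 1 without LC-RD replicate 1). Past 2-fold it was 1, and 0 after quantile normalization or median centring, and 0 to 1 leaving out an array (0 without LC-HFD replicate 3). Of the 159 listed genes measured outside the members, 58 passed, 37 with the block, 24 with the covariate, and 33 to 54 leaving out an array (33 without LC-RD replicate 1, 36 without LC-RD replicate 2). Over all probe sets 11250 passed, 13787 with the trend and robust variance, 7906 with the block and 3558 with the covariate, and 5792 to 11531 leaving out an array. The cause of these shifts was not tested.

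The replicate numbers did not pair the mice: same-numbered mice correlated at -0.0431, -0.093 and -0.0303 in their deviations from the group means, and no mouse correlated best with its own number. Under the replicate block the difference stayed 0.53 for Apoc2 and 0.28 for Abca1 and neither passed.

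Apoc1 passed throughout (-1.08 to -0.95 leaving out an array). Apoe was lost with the covariate (0.35), with 0.31 to 0.36 leaving out an array. Apoc2 was lost under the t-test (0.53), quantile normalization (0.465) and the covariate (0.56), with 0.41 to 0.63 leaving out an array, and is under the minimum mean value of 6. Abca1 was lost with the covariate (0.25) and as the gene median (0.002), with 0.26 to 0.30 leaving out an array. Nr1h3 passed after quantile normalization (0.36), after median centring (0.30) and as the gene median (0.28), with 0.24 to 0.34 leaving out an array. With an intensity trend and robust variance Abcg1 (0.17), Mylip (-0.24), Lpcat3 (-0.16) and Cd36 (-0.12) passed, and with the minimum mean value Mylip (-0.24) and Lpcat3 (-0.16) did. The Cd36 probe set 1450884_at (-0.20) passed in both. The Abca1 probe set 1421839_at, near 0, changed sign with array weights (-0.0503) and with the covariate (-0.0106), and ran from -0.0678 to 0.0576 leaving out an array. As gene medians Abca3 (-0.11) and Mboat7 (-0.0034) changed sign, and beta-actin did so after quantile normalization (-0.0045). Of the listed genes named, Abca2, Abca3, Abcg2, Cldn5, Elovl6, Gramd1c, Mboat7, Relb, Smpdl3a and Stard3 lost their calls under the block and under the covariate. Adipoq, Apoa1, Atp6v0d2, Cyp39a1, Lsr, Lum, Scd1, Scd2, Srebf1, Stard4, Sult2b1, Mfap4 and Tek lost theirs under the covariate but not under the block. Calls ended by the methods' t-test included those of Abcg2, Adipoq and Apoa1 (adjusted p = 0.103, 0.1035 and 0.0582 in the t-test). Background correction could not be changed, since only summarised values were used.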
